A study of Mus musculus with 360 samples.

Results

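The genes described here are 36 genes of glycolysis and of the response to low oxygen, given as a list of names, out of 24015 genes in the tables. The list holds 24 genes of glucose uptake, glycolysis, lactate and pyruvate handling, called the glycolysis set, and 12 genes of oxygen sensing and its targets, called the hypoxia set. All 36 symbols were found in the tables.

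Glycolysis splits glucose into pyruvate in a preparatory phase, which spends ATP, and a payoff phase, which returns it, and lactate dehydrogenase then turns pyruvate into lactate. When oxygen is low, the prolyl hydroxylases encoded by Egln1 and Egln3 no longer mark the alpha subunits Hif1a and Epas1 for destruction, and the stabilised factor raises transcription of glucose transporters, most glycolytic enzymes, Vegfa and mitophagy genes such as Bnip3. Hif1a is controlled mainly at the level of its protein, so its mRNA does not measure the activity of the factor. Cartilage has no blood vessels, and its cells are known to rely on glycolysis and on Hif1a.

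The study compared skeletal stem and progenitor cells of sutures, the fibrous joints of the skull vault, with those of the growth plate of the tibia. Cells were sorted from wild-type CD-1 mice at postnatal day 3 for the surface proteins CD51 and CD200, after removal of cells with CD45, Ter119, Tie2, Thy1, 6C3 or CD105. RNA of single cells was sequenced from the posterior frontal suture (PF, which closes early in life), the sagittal suture (SAG), the coronal suture (COR) and the growth plate (GP). Each tissue came on 2 plates, and the 4 groups shared strain, age, genotype and sort, with no treatment and no animal named in the labels. Each tissue therefore counted as 1 sample, no p-value was computed, and tissue and plate cannot be told apart beyond the spread between the 2 plates. Of 360 cells, 325 passed a filter of 500 genes with a read and 10000 reads, namely 87 from PF (14 left out), 86 from SAG (8 left out), 74 from COR (6 left out) and 78 from GP (7 left out). In 1 SAG cell the description named a PF plate; its title and source name were followed.

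Levels are given as reads per 1000000 reads other than those of the ribosomal RNA gene Rn45s, summed over the cells of a plate or tissue, and written RPM. Summed reads other than Rn45s ran from 3237921 on COR plate 1 to 28799387 on COR plate 2. SAG plate 2 stood apart from the other 7 plates: Rn45s took 86.8% of its reads, against 20.2% to 31% on the others, and its cells had a median of 875 genes with a read, against 2111.5 to 3867. Its cell cycle marker genes summed to 0.0967 RPM, against 14.8 to 274 elsewhere, and 21 cartilage marker genes summed to 17074 and 20787 RPM on the SAG plates, against 1033 to 6182 on the others. Osteoblast marker genes summed to 112232 and 47441 RPM on the SAG plates, against 127405 to 301542 elsewhere, and fibroblast markers to 9689 and 5561 RPM, against 17543 to 37838. The 4 marker lists thus set both SAG plates apart from the other 6, while the Rn45s share and the number of genes set apart SAG plate 2 alone. The part of these values in the SAG results was not tested, and both SAG plates are given throughout. Hindlimb position genes summed to 166 and 168 RPM on the GP plates and to at most 1.18 RPM on a suture plate. Endothelial marker genes summed to at most 25.6 RPM and haematopoietic markers to at most 41.1 RPM on any plate. Counts are of reads after PCR, without molecular identifiers, so the intervals of levels below cover counting error only. The intervals of shares of cells treat the cells of a tissue as independent and do not cover the difference between its plates.

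Promoter sequences were read for 33 of the 36 genes, from RefSeq on build GRCm38.p6, as the 250 bases before each start site. They were searched on both strands for the 5 letters at the core of a hypoxia response element, ACGTG or GCGTG, where a palindromic CACGTG counts as 2 overlapping matches. At least 1 window of 29 of the 33 genes (87.9%) held a match, against 41.5% of 27025 genes with a window. By windows, 37 of 46 (80.4%) held one, against 38.6% of 32851. The windows of these genes were also richer in G and C, with a median of 59.4% against 52.4%, and its part in the difference was not tested. The windows of Eno2, Tpi1, Gpi1 and Car12 held no match, and Slc2a3, Epas1 and Ndrg1 had no entry. Shown here are 5 genes on which the results turn, namely the main lactate dehydrogenase, a payoff-phase enzyme, a glucose transporter, a mitophagy gene and Hif1a itself. Capitals mark the matches, which are letters and not measured binding sites.
Ldha, chr7:46845554-46845803, + strand: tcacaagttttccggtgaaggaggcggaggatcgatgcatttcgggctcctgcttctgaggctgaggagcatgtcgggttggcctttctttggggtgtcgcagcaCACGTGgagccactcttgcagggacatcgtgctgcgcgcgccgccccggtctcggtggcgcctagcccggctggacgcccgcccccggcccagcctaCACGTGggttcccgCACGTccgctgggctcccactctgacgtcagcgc
Pgk1, chrX:106186850-106187099, + strand: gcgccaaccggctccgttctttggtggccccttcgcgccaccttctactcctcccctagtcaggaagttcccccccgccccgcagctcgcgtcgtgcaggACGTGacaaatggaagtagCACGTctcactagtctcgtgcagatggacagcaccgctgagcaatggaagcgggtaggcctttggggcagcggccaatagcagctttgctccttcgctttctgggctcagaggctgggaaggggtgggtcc
Slc2a1, chr4:119108495-119108744, + strand: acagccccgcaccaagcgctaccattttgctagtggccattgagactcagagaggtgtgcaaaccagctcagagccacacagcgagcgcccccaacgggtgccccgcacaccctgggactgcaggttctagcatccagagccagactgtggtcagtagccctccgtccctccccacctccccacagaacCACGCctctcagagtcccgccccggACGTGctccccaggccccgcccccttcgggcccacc
Bnip3, chr7:138909507-138909756, - strand: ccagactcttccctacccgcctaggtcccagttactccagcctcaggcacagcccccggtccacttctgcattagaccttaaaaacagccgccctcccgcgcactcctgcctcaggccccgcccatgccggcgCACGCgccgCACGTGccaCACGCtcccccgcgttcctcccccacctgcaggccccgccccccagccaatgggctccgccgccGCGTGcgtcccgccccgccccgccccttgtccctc
Hif1a, chr12:73907617-73907866, + strand: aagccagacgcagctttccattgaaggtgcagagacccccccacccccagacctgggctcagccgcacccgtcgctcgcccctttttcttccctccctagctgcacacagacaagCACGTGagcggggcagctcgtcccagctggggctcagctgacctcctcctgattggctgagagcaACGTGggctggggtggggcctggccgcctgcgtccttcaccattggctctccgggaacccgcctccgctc

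Lactate dehydrogenase A (Ldha) had 5 matches in this window and Bnip3 had 5, while Hif1a had 3, and Pgk1 and Slc2a1 had 2 each. In the mm9 annotation Ldha lies on chromosome 7 (54096845 to 54110997), Pgk1 on X (103382439 to 103399038), Slc2a1 on 4 (118781316 to 118809935), Bnip3 on 7 (146082519 to 146101202) and Hif1a on 12 (75002362 to 75048517).

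The 36 genes together took a similar part of the reads in every tissue. Their sum was 3972, 4069, 4243 and 4056 RPM in PF, SAG, COR and GP, and it ran from 3556 to 5232 RPM over the 8 plates. The make-up of that sum was different on SAG plate 2. The glycolysis set summed to 3481 and 3675 RPM on the PF plates, 4294 and 1104 on SAG plates 1 and 2, 4915 and 3814 on the COR plates, and 4784 and 3467 on the GP plates. SAG plate 2 was the lowest plate of the set, and SAG plate 1 lay among the plates of the other tissues. The hypoxia set summed to 216 and 363 RPM in PF, 547 and 2452 in SAG, 296 and 320.1 in COR, and 449 and 342 in GP. Both SAG plates were above all others, SAG plate 1 by a small margin over GP plate 1. Without Hif1a the other members summed to 236 and 171 RPM on the SAG plates, against 51.7 and 198 in PF, 135 and 154 in COR, and 202 and 96.8 in GP. SAG plate 1 was then the highest plate, and SAG plate 2 lay among the plates of the other tissues.

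**Figure D1:**
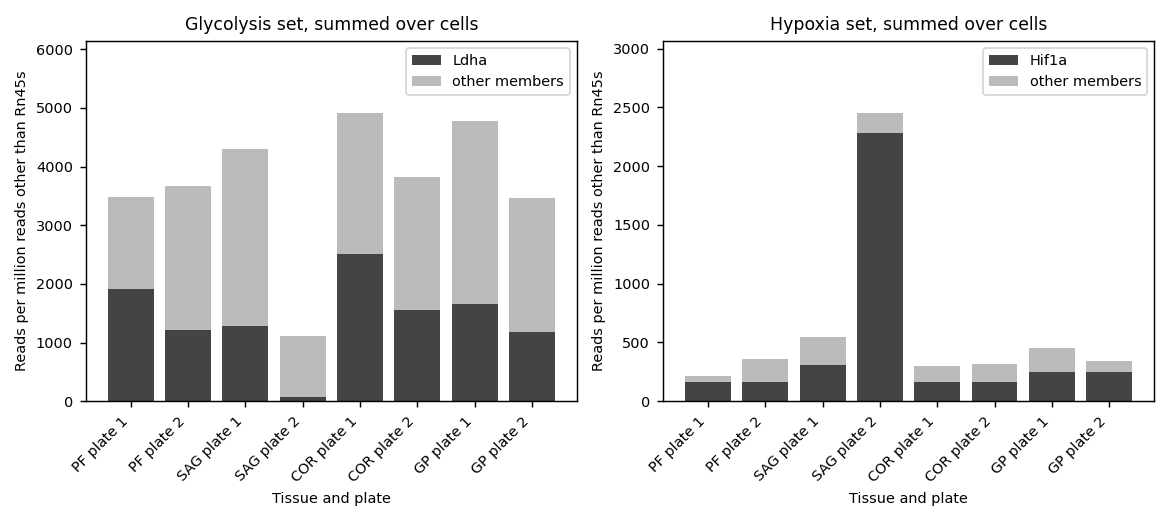
Summed level of the glycolysis set (left) and the hypoxia set (right) on each plate, in RPM (vertical axis, linear), for each tissue and plate (horizontal axis). The dark part of each bar is Ldha or Hif1a and the light part the other members. SAG plate 2 has the lowest glycolysis bar (1104) and the highest hypoxia bar (2452), nearly all of it Hif1a.

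By counting error alone the tissue sums were precise. The glycolysis set had 95% Poisson intervals of 3616 to 3659 RPM around 3638 in PF, 2355 to 2401 around 2378 in SAG, 3904 to 3947 around 3926 in COR and 3673 to 3718 around 3695 in GP. The 2 plates of a tissue differed by far more than these intervals. Between PF and COR the log2 ratio of the set was -0.11, and the ratios of single plates ran from -0.50 to -0.05. Between PF and GP it was -0.02 (plates -0.46 to 0.08) and between COR and GP 0.09 (-0.33 to 0.50), so neither had a direction shared by all plates. SAG had lower sums than the other tissues, with log2 ratios of PF to SAG of 0.61 (-0.30 to 1.73), SAG to COR of -0.72 (-2.15 to 0.17) and SAG to GP of -0.64 (-2.11 to 0.31). Each of these ranges crossed 0, since SAG plate 1 gave the opposite sign in some plate pairs. For the hypoxia set, PF to SAG was -2.33 (-3.50 to -0.59), SAG to COR 2.41 (0.77 to 3.05) and SAG to GP 2.23 (0.29 to 2.84). All plate pairs gave the same sign here, but without SAG plate 2 the 3 ratios were -0.71, 0.78 and 0.60. Among PF, COR and GP the hypoxia set differed little: 0.07 for PF to COR (-0.56 to 0.29), -0.11 for PF to GP (-1.05 to 0.09) and -0.18 for COR to GP (-0.60 to -0.10).

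The members covered a wide range of levels. On all 8 plates 21 of the 36 genes had a read, 7 were at 10 RPM or more on every plate, 14 were so on every plate other than SAG plate 2, and 6 were under 10 RPM on every plate. Per kilobase of annotated exon, Ldha ranked first of the 36 genes on 7 plates and had rank 5 on SAG plate 2, where Hif1a ranked first. Aldoa was in the second place on all 8 plates. Gapdh was in the third place on every plate but PF plate 2, where Ldhb was.

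**Figure D2:**
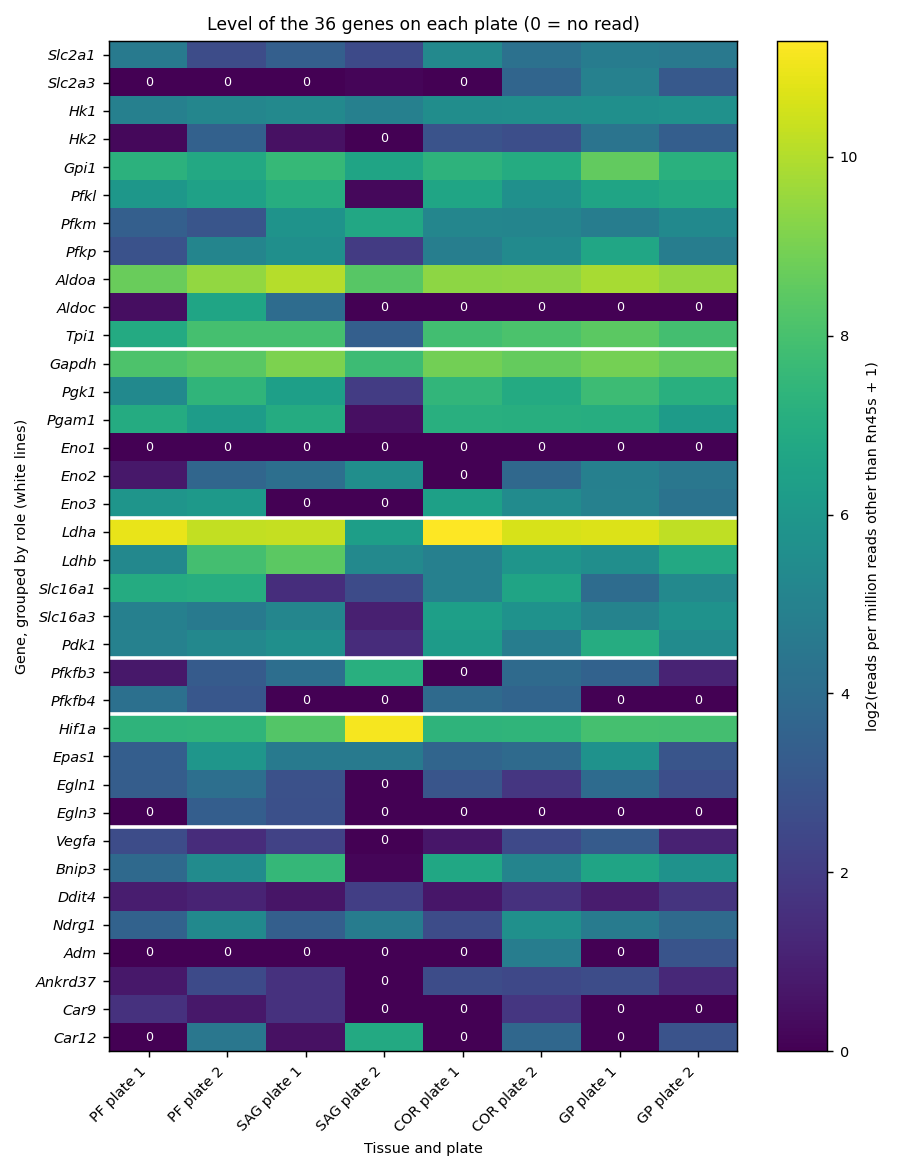
Level of each of the 36 genes (rows, grouped by role with white lines between groups) on each of the 8 plates (columns), as log2 of RPM + 1; a printed 0 marks a gene with no read on a plate. The same few enzymes (Aldoa, Gapdh, Ldha) are bright on 7 plates, Hif1a is brightest on SAG plate 2, and Eno1 is 0 throughout.

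Glucose uptake and the preparatory phase came first. These 11 genes summed to 1248, 1064, 1290.0 and 1504 RPM in PF, SAG, COR and GP. Slc2a1 encodes GLUT1, the basal glucose transporter. It had 24 and 5.25 RPM on the PF plates, 9.75 and 4.74 on the SAG plates, 38.6 and 17.6 on the COR plates, and 25.5 and 22.9 on the GP plates. Both SAG plates were below all COR and GP plates. A single cell held 63.4% and 98.4% of the Slc2a1 reads on the PF plates, and 64.2% and 95.9% on the SAG plates. On the COR and GP plates this share ran from 22.3% to 54.8%. Slc2a3, which encodes GLUT3, had no read on either PF plate, on SAG plate 1 or on COR plate 1. It had 0.0967 RPM on SAG plate 2, 11.8 on COR plate 2, and 30.4 and 7.86 on the GP plates. On GP plate 1 a single cell held 98.7% of its reads, and on GP plate 2 a single cell held 85.9%.

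Hexokinase traps glucose in the cell by phosphorylation. Hk1 was at 29.2 to 51.4 RPM over the 8 plates. Hk2, the hexokinase that insulin and hypoxia induce, had 0.169 and 10.5 RPM in PF, 0.436 and 0 in SAG, 6.49 and 5.66 in COR, and 19.4 and 9.43 in GP. On both SAG plates it was below each COR and GP plate. On each plate with Hk2 reads a single cell held 53.1% to 100% of them, so few cells carried this order. Gpi1, the isomerase of the next step, ran from 95.2 RPM on SAG plate 2 to 384 on GP plate 1.

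Phosphofructokinase is the committed step and is built from liver, muscle and platelet subunits. The muscle subunit gene Pfkm had 9.64 and 6.97 RPM on the PF plates, 55.3 and 108 on the SAG plates, 35.2 and 34.7 on the COR plates, and 26.7 and 40.1 on the GP plates. Both PF plates were below the other 6. Pfkl ran from 49.5 to 129 RPM on 7 plates and was at 0.193 on SAG plate 2, and Pfkp ran from 2.90 on that plate to 102 on GP plate 1. Aldoa, the main aldolase, had 324 to 1061 RPM, the lowest on SAG plate 2 and the highest on SAG plate 1. Aldoc, the aldolase known from brain, had 0.338 and 99 RPM on the PF plates and 15.1 on SAG plate 1, with no read on the other 5 plates. On PF plate 2 a single cell held 80.2% of its reads. Tpi1, the triose isomerase, ran from 120.2 to 351 RPM on 7 plates and was at 9.58 on SAG plate 2.

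The payoff phase genes summed to 628, 464, 720.3 and 678 RPM in PF, SAG, COR and GP. Gapdh, which oxidises the triose, had 286 and 334 RPM in PF, 543 and 215 in SAG, 477 and 395 in COR, and 488 and 379 in GP. Its lowest and highest plates were both SAG. Pgk1, the first enzyme of the pathway to return ATP, had 40.6 and 168 RPM in PF, 82.9 and 3.00 in SAG, 169.9 and 118 in COR, and 215 and 141 in GP. Both SAG plates were below all COR and GP plates, and PF plate 1 was below SAG plate 1. Pgam1, the mutase, had 121 and 75.6 RPM in PF, 121 and 0.387 in SAG, 137 and 135 in COR, and 129 and 73.1 in GP. SAG plate 1 lay among the other tissues and SAG plate 2 was near 0. Gapdh, Ldha, Pgk1, Aldoa, Tpi1 and Pgam1 have processed copies in the genome, and how the authors' counting treated reads that fit several places was not stated.

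Of the enolase genes, Eno3 had no read in SAG. Eno1, the ubiquitous enolase, was listed at 0 in all 360 cells, while the listed near-identical gene Eno1b held 13603 reads in 266 cells, so the enolase step cannot be read from Eno1. Eno1b had 79.5 to 122 RPM on 7 plates and 335 on SAG plate 2. Eno3, known as the muscle enolase, had 59 and 68.2 RPM on the PF plates, no read on either SAG plate, 84.6 and 43.2 RPM on the COR plates, and 30.6 and 18.7 on the GP plates. The PF and COR plates were all above the GP plates, and 0 of 86 SAG cells had a read, which allows a share of up to 3.49%. Of these cells 56 were from SAG plate 2, where 43 had no read of Ldha either, so they say little on absence. The other 30 were from SAG plate 1. A read of Eno3 was found in 21.8% of PF cells (19 of 87), 31.1% of COR cells (23 of 74) and 14.1% of GP cells (11 of 78). After thinning each cell to 100000 reads other than Rn45s the shares were 24.3%, 31% and 16.4%, with 17, 6, 3 and 11 cells of PF, SAG, COR and GP left out of all thinned values as too shallow. Eno2, the neuronal enolase, had 0.676 and 12.4 RPM in PF, 16.7 and 46.6 in SAG, 0 and 13 in COR, and 29.6 and 21.3 in GP, and all PF and COR plates were below all SAG and GP plates. A single cell held 100% of the Eno2 reads on PF plate 1 and 66.2% on SAG plate 2. On the other plates with reads this share ran from 26.9% to 41.9%, so few cells carried this order.

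Lactate dehydrogenase, the monocarboxylate carriers and the gate to the mitochondrion followed. Ldha alone made up 36.6% of the reads of the glycolysis set over all cells. It had 1919 and 1217 RPM on the PF plates, 1278 and 79 on the SAG plates, 2518 and 1559.8 on the COR plates, and 1663 and 1187 on the GP plates. SAG plate 1 was above PF plate 2 and GP plate 2, and SAG plate 2 was far below every plate. A read of Ldha was found in 23.2% of the cells of SAG plate 2, against 83% to 100% on the other plates, and in 18.2% of its thinned cells against 83.3% to 100%. Ldhb, the subunit that favours the reverse reaction, ran from 29.3 RPM on COR plate 1 to 351 on SAG plate 1, and the plates of PF spanned 37.2 to 242.

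Slc16a1 and Slc16a3 encode MCT1 and MCT4, the carriers that move lactate across the membrane. Slc16a1 had 121 and 130.2 RPM on the PF plates, 1.75 and 4.93 on the SAG plates, 29.3 and 97.3 on the COR plates, and 14.8 and 38.4 on the GP plates. PF was above every other plate and SAG below every other plate. Its share of cells was 29.9%, 5.81%, 25.7% and 12.8% in PF, SAG, COR and GP. Slc16a3 had 29.2 and 23.7 RPM in PF, 34.9 and 0.967 in SAG, 83.4 and 53.6 in COR, and 31.8 and 52.9 in GP, and both COR plates were above all others. Pdk1, the kinase that closes pyruvate dehydrogenase, ran from 26.3 to 127 RPM on 7 plates and was at 1.74 on SAG plate 2.

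For Slc16a1 the 95% Clopper-Pearson intervals of these shares were 20.5% to 40.6%, 1.91% to 13%, 16.2% to 37.2% and 6.32% to 22.3% in the same order of tissues, and thinned to equal depth the shares were 28.6%, 3.75%, 22.5% and 14.9%. For Ldha the intervals were 75.8% to 91.8%, 33.5% to 55.3%, 90.6% to 99.7% and 79.2% to 94.6% in the same order of tissues, and for SAG plate 1 alone 65.3% to 94.4%. The SAG interval of Ldha lay between the shares of its 2 plates and held neither, so it does not describe the spread between plates.

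Pfkfb3 and Pfkfb4 make fructose 2,6-bisphosphate, the activator of phosphofructokinase. Pfkfb3 had 0.676 and 8.61 RPM in PF, 16 and 140.0 in SAG, 0 and 14 in COR, and 10.9 and 1.15 in GP. Both SAG plates were above all others, with a read in 5.81% of SAG cells. A single cell held 86.4% of the Pfkfb3 reads on SAG plate 1 and 62.2% on SAG plate 2. Pfkfb4 had 17.2 and 7.42 RPM in PF, none in SAG, 13.9 and 11.6 in COR, and none in GP. The PF and COR plates all held reads, in 5.75% and 5.41% of cells, and the SAG and GP plates held none. A single cell held 99% of the Pfkfb4 reads on PF plate 1 and 100% on COR plate 1.

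Among the hypoxia factors, Hif1a had 164 and 165 RPM in PF, 311 and 2282 in SAG, 161 and 166 in COR, and 247 and 245 in GP. Plates of PF, COR and GP differed from their own pair by little, the GP plates were above the PF and COR plates, and both SAG plates were above all of them. On SAG plate 2 the reads were spread over the cells, with a read in 69.6% of cells and 9.20% of the reads in the highest cell. The share of cells with a Hif1a read did not rank that plate above the rest, as it was 73.3% on SAG plate 1 and 72.4% on GP plate 2. Epas1, which encodes HIF-2alpha, had 9.47 and 59.8 RPM in PF, 23.3 and 24.2 in SAG, 12 and 14 in COR, and 53.4 and 6.93 in GP. No tissue held all its high plates, and a single cell carried 82.5% of the reads on PF plate 2 and all of them on GP plate 1. Per kilobase of exon, Hif1a made up 71.3% to 98.8% of the sum of Hif1a and Epas1 on the 8 plates.

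The oxygen sensors were low. Egln1, which encodes PHD2, had 8.96 and 16.3 RPM in PF, 5.96 and 0 in SAG, 6.79 and 2.5 in COR, and 14.4 and 5.61 in GP. PF was above SAG and COR on every plate. A single cell held 96.2% of the Egln1 reads on PF plate 1, 100% on SAG plate 1 and on COR plate 1, and 93.1% on COR plate 2. Few cells thus carried this order. Egln3, which encodes PHD3 and is itself a HIF target, was read on PF plate 2 (9.23 RPM) and SAG plate 1 (5.67 RPM) and on no other plate.

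The effectors that low oxygen is known to induce were mostly low. Vegfa, the angiogenic growth factor, had 5.24 and 1.68 RPM in PF, 3.64 and 0 in SAG, 0.618 and 4.58 in COR, and 8.50 and 1.10 in GP. The tissues overlapped, and a read was found in 4.65% to 12.8% of the cells of a tissue. Bnip3, the mitophagy receptor, had 13.7 and 42.7 RPM in PF, 182 and 0.0967 in SAG, 105 and 33.7 in COR, and 94.5 and 52.4 in GP. Its highest and lowest plates were both SAG. Ndrg1, a stress-response gene, had 10.8 and 39.9 RPM in PF, 9.75 and 26.1 in SAG, 5.25 and 50.7 in COR, and 24.9 and 14 in GP, with 100% of the reads of PF plate 1, SAG plate 1 and COR plate 1 each in a single cell. Ddit4, an inhibitor of mTOR signalling, stayed between 0.582 and 3.29 RPM on the 8 plates, and Ankrd37 was at most 5.26 RPM. Adm, which encodes adrenomedullin, was read on COR plate 2 (26.5 RPM) and GP plate 2 (6.63 RPM) alone. The carbonic anhydrase gene Car9, a standard marker of hypoxic cells, was at most 2.5 RPM and was read in 0 of 78 GP cells, which allows a share of up to 3.85%. Car12, another carbonic anhydrase gene, reached 117 RPM on SAG plate 2, with 63.4% of these reads in a single cell.

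Isozyme use was compared per kilobase of exon within each family. Ldha made up 96.4% and 72.6% of lactate dehydrogenase on the PF plates, 65.7% and 52.1% on the SAG plates, 97.8% and 93.3% on the COR plates, and 94.9% and 84.9% on the GP plates. Both SAG plates were below the 6 others, and the rest was Ldhb. Pfkl made up 79% and 77% of phosphofructokinase in PF and 41.7% to 62.3% on the COR, GP and first SAG plates, with Pfkm at 99% on SAG plate 2. Among the lactate carriers, Slc16a1 made up 83.3% and 86.8% in PF, 5.67% and 86% in SAG, 29.7% and 68.5% in COR, and 35.8% and 46.6% in GP. On SAG plate 2 a single cell held 51.3% of the Ldha reads, 61.4% of Ldhb, 40.4% of Pfkm and 96.1% of Slc16a1. Few cells thus carried the shares of that plate. Other plates had such cells too, with 83.6% of the Ldhb reads of PF plate 1 in a single cell. Aldoa was at least 89.4% of aldolase and Hk1 at least 63.2% of hexokinase on every plate.

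**Figure D3:**
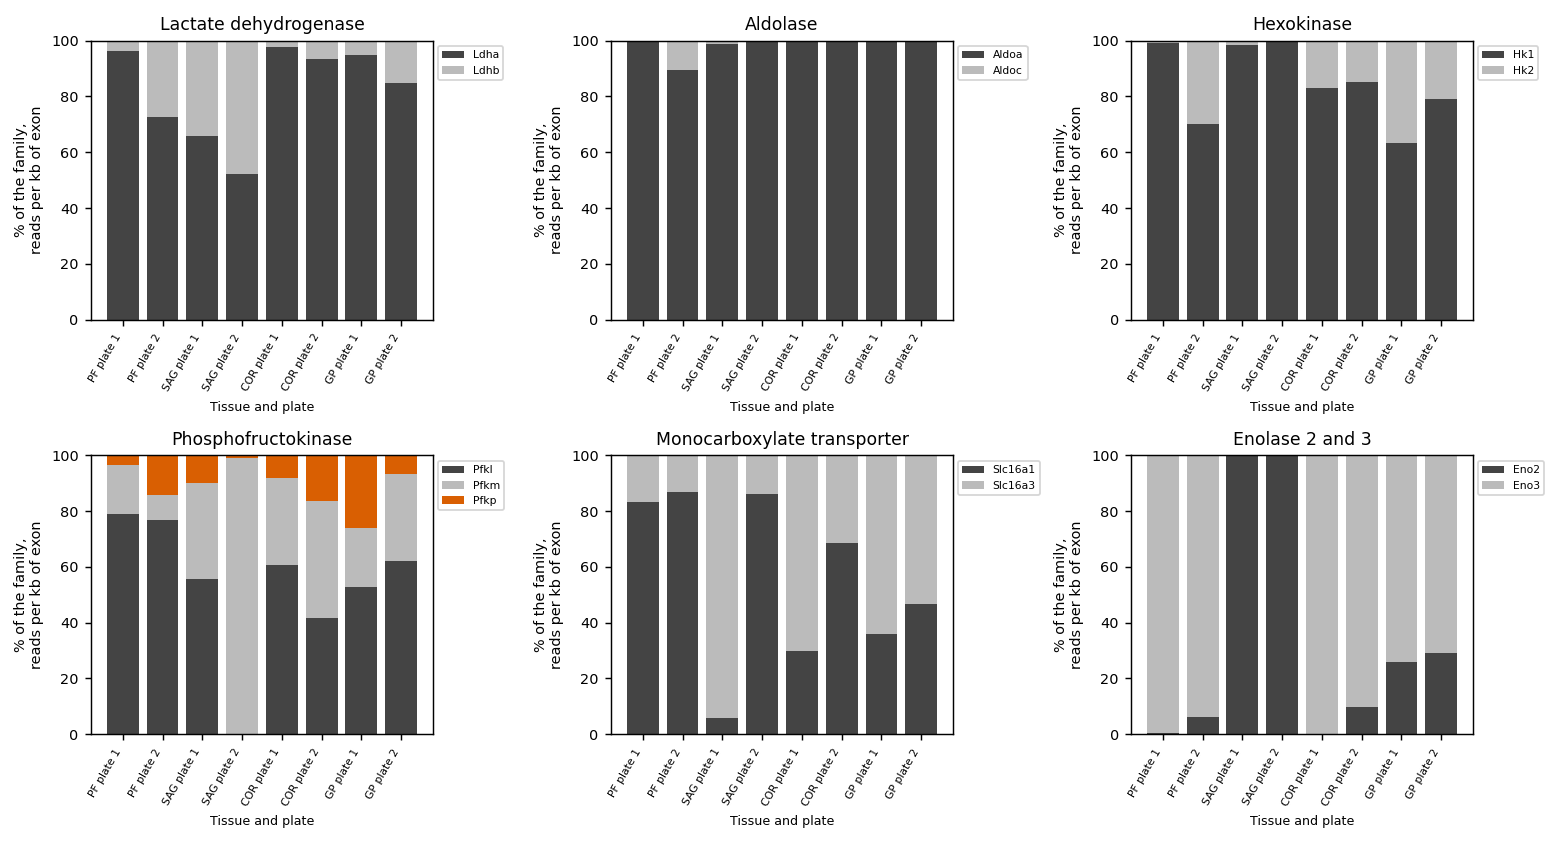
Share of each isozyme gene in the level of its family per kilobase of annotated exon (vertical axis, percent of the family) on each plate (horizontal axis), for 6 families. Ldhb (light) takes its largest shares on the SAG plates (34.3% and 47.9%), Pfkl (dark) its largest on the PF plates, and Eno3 (light) has no read on either SAG plate. On SAG plate 2 a single cell held 51.3% of the Ldha reads and 61.4% of the Ldhb reads.

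Single genes were called different between tissues where a gene reached 10 RPM in one of them, the log2 ratio was at least 1 in size and all 4 ratios of single plates had its sign. The rule was applied to all genes, so the calls among the members can be set beside the share called of all genes tested; the comparisons share tissues and are not independent.

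Between PF and COR, 29 members were tested. Aldoc and Egln1 were higher in PF, where 5.43% of 9514 genes tested were called higher, and Pfkm and Slc16a3 were lower, where 6.36% were called lower. The call of Aldoc rests on PF plate 2, where 1 cell held most of its reads; without that plate its level in PF is that of plate 1 (0.338 RPM), below the 10 RPM a call needs, and it had no read in COR or GP. Without PF plate 2 the log2 ratios of Egln1 and Slc16a3 were 1.34 and -0.93, and neither was called. Egln1 had a log2 ratio of 2.01 (single plates 0.35 to 2.30), Pfkm of -2.07 (-2.18 to -1.75) and Slc16a3 of -1.16 (-1.77 to -0.85). The median log2 ratio was -0.19 over the members tested and 0.03 over all genes tested.

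Between PF and GP, 27 members were tested. Aldoc, Eno3 and Slc16a1 were higher in PF, beside 7.67% of 9584 genes, and Slc2a3, Pfkm and Eno2 were lower, beside 8.73%. Slc16a1 had a log2 ratio of 1.87 (1.63 to 3.06), Eno3 of 1.63 (0.93 to 1.81) and Pfkm of -2.19 (-2.37 to -1.38). Slc2a3 was at least 119-fold lower in PF than in GP, against 3 reads over the PF cells. On each GP plate a single cell held most of its reads, so few cells carried this bound. Aldoc again lost its call without PF plate 2, Eno2 without PF plate 1 (-1.10 with it and -0.83 without) and Slc2a3 without GP plate 1. With each cell weighted equally Eno2 (-0.66) and Slc2a3 were not called, and Slc2a3 was not called with Rn45s counted in the total. Between COR and GP, 28 members were tested, and Eno3 (1.16) and Pfkfb4 were higher in COR, beside 6.33% of 9431 genes, while none was lower, beside 7.09%. Without GP plate 2 the log2 ratio of Eno3 was 0.62 and it was not called. Pfkfb4 was at least 112-fold higher in COR, where a single cell held 52.4% of its reads. It was not called with each cell weighted equally or with Rn45s counted in the total. The medians were -0.29 for PF to GP, with 0.10 over all genes, and -0.11 for COR to GP, with 0.07.

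Between PF and SAG, 25 members were tested. Eno3, Slc16a1 and Egln1 were higher in PF, beside 16.9% of 9869 genes, and Pfkm, Eno2, Pfkfb3 and Hif1a were lower, beside 13.2%. Eno3 was at least 381-fold higher, and Slc16a1 had a log2 ratio of 4.80 (4.36 to 5.58). Hif1a had a log2 ratio of -3.17 (-3.79 to -0.91), and without SAG plate 2 it was -0.91 and no longer called. Eno2 also lost its call without that plate (-0.68), while Pfkm (-2.73), Pfkfb3 (-1.08), Egln1 (1.19), Slc16a1 (5.56) and Eno3 remained called, and Bnip3 and Ndrg1 came in. For Pfkfb3 the level in SAG then rested on SAG plate 1, where a single cell held 86.4% of its reads. Egln1 was not called without PF plate 2 (1.56).

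Between SAG and COR, 27 members were tested. Slc2a1, Pgk1, Pgam1, Eno3, Ldha, Slc16a1, Slc16a3 and Pfkfb4 were lower in SAG, beside 18.9% of 9800 genes, and Pfkm, Eno2, Pfkfb3 and Hif1a were higher, beside 13.5%. Of these 12, Eno3, Slc16a1 and Pfkfb4 were still called without SAG plate 2, and Pfkl, Aldoc, Ldhb and Bnip3 came in. Ldha moved from -1.57 to -0.37, Pgk1 from -1.79 to -0.56 and Pgam1 from -1.46 to -0.16. Slc16a1 had a log2 ratio of -4.29 (-5.16 to -2.35) with that plate and -5.06 without it. Eno3 was at least 272-fold lower in SAG. With each cell weighted equally Slc2a1 (-0.58), Pgam1 (-1.43) and Pfkfb4 were not called.

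Between SAG and GP, 26 members were tested. Slc2a1, Slc2a3, Hk2, Pgk1, Eno3 and Slc16a1 were lower in SAG, beside 18.3% of 9845 genes, and Pfkm, Pfkfb3 and Hif1a were higher, beside 13.3%. Without SAG plate 2, Pgk1, Pfkm and Hif1a were not called and the other 6 were, and Aldoc, Ldhb and Bnip3 came in. The call of Pfkfb3 then rested on SAG plate 1, with most of its reads in a single cell. Slc2a1 had a log2 ratio of -1.65 (-2.21 to -1.15), Hk2 of -3.37 and Slc16a1 of -2.92. With each cell weighted equally Slc2a1 (-0.28), Slc2a3, Hk2 and Pfkm (0.68) were not called, and without GP plate 1 Slc2a3 and Hk2 were not. The medians over members and over all genes tested were 0.67 and 0.29 between PF and SAG, -0.59 and -0.29 between SAG and COR, and -0.68 and -0.23 between SAG and GP. With Rn45s counted in the total the median of all genes moved to 1.99, -2.00 and -1.86 in these 3 comparisons, so the scale of every SAG ratio rests on leaving Rn45s out. Under that scaling the share of all calls that were higher in the first tissue went from 56.2% to 88.2% between PF and SAG, from 41.7% to 9.91% between SAG and COR and from 42% to 13.1% between SAG and GP, and the sign of Eno2 (PF to SAG 0.10, SAG to COR -0.29) and of Pfkm (SAG to COR -0.55, SAG to GP -0.58) turned. Eno3, Slc16a1 and Hif1a kept their direction, but Hif1a was not called between SAG and GP (0.79), nor Pfkfb3 between SAG and COR (0.87). Slc2a3 and Hk2 were likewise not called between SAG and GP under that scaling, nor Pfkfb4 between SAG and COR.

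Cells within a plate differed far more than plates did. The glycolysis set had a median per cell of 2702 RPM in PF (range 84.3 to 21361), 1649 in SAG (range 0 to 18337), 3334 in COR (range 474 to 12604) and 3122 in GP (range 505 to 15973). On SAG plate 1 the median was 3767 (1048 to 18337), and on SAG plate 2 it was 339 (0 to 10212), with 13 of 56 cells at 0. No cell of another plate was at 0. The hypoxia set had a median of 37.6 to 274 RPM per cell on the PF, COR and GP plates, 481 on SAG plate 1 and 1581 on SAG plate 2. A thinned cell held reads of a median of 7.5 to 13 of the 36 members on 7 plates and of 2 members on SAG plate 2.

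**Figure D4:**
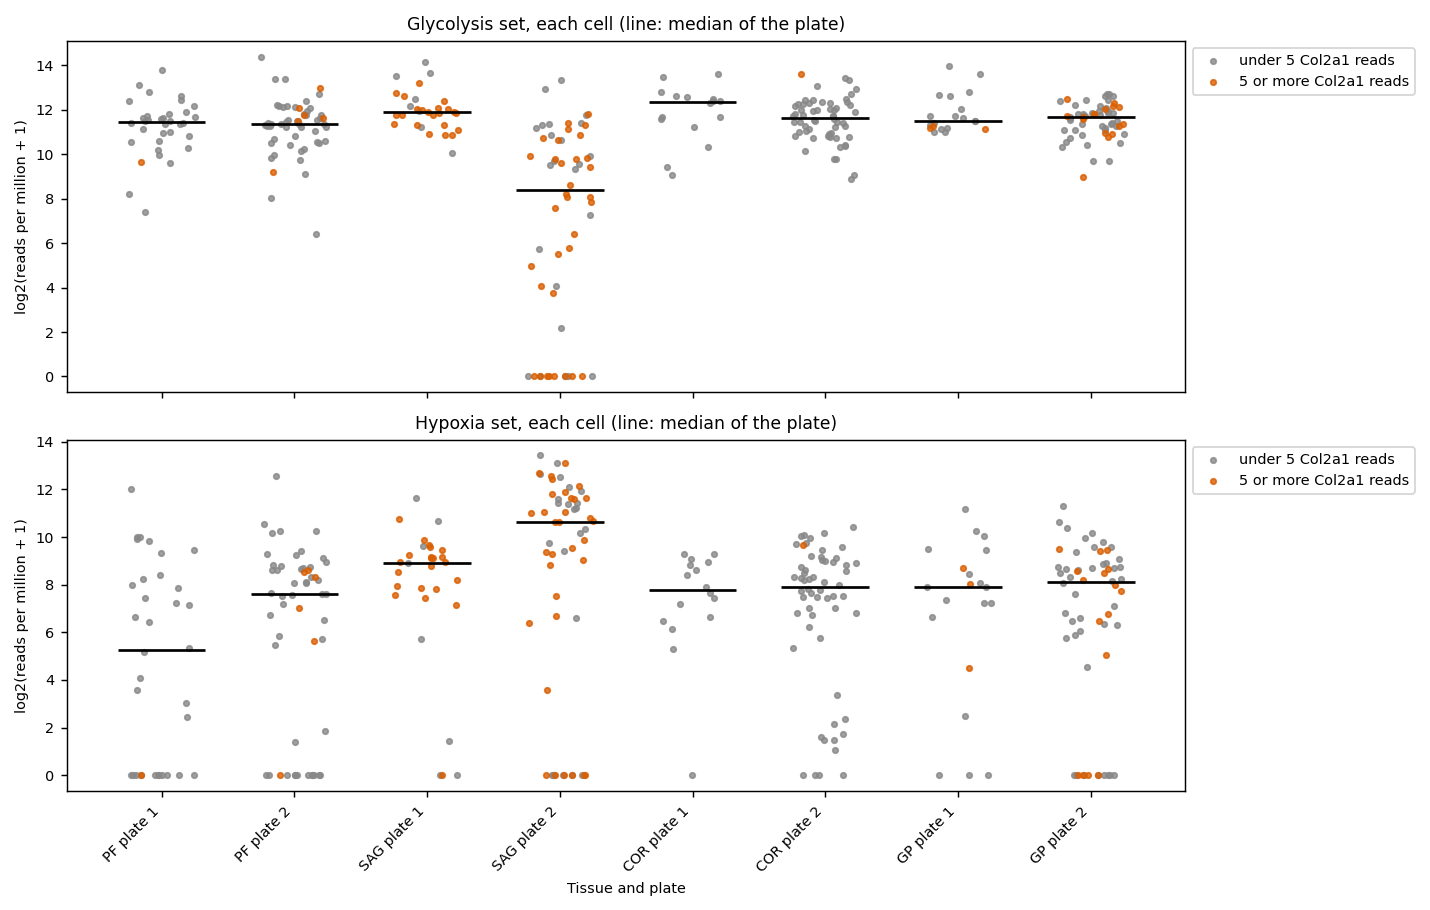
Each cell's level of the glycolysis set (top) and the hypoxia set (bottom), as log2 of RPM + 1 (vertical axis), by plate (horizontal axis); points are cells, orange with 5 or more Col2a1 reads and grey with fewer, and the line is the plate median. Glycolysis medians lie close together on 7 plates and fall to 339 RPM on SAG plate 2, whose hypoxia median (1581 RPM) is the highest.

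Reads of all 6 of Aldoa, Tpi1, Gapdh, Pgk1, Pgam1 and Ldha were found in 26.4% of PF cells, 9.30% of SAG cells (23.3% on plate 1 and 1.79% on plate 2), 44.6% of COR cells and 35.9% of GP cells. Across the thinned cells of a plate, the median Spearman correlation over the 15 pairs of these enzymes was 0.16 on PF plate 1 (22 cells), 0.34 on PF plate 2 (48 cells), 0.23 and 0.22 on the SAG plates (25 and 55 cells), 0.58 and 0.46 on the COR plates (14 and 57 cells), and 0.35 and 0.21 on the GP plates (17 and 50 cells). These are descriptions of sparse counts, the pairs share cells, and the set's sum also went with the number of genes read in a cell, at 0.37 to 0.67 on the PF, COR and GP plates and at -0.26 and -0.02 on the SAG plates. The median correlation of the 6 enzymes with Hif1a ran from -0.15 on SAG plate 2 to 0.31 on GP plate 1.

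Cells with 5 or more reads of Col2a1, the gene of the main cartilage collagen, were compared with the other cells of the same plate. There were 82 such cells and 243 others; 72 cells had at least 50 Col2a1 reads, 6 had 1 to 4 and 4 had 5 to 9, so few lay near the limit. They were 7 of 87 PF cells, 55 of 86 SAG cells, 1 of 74 COR cells and 19 of 78 GP cells. A ratio was taken on the 5 plates with at least 3 cells of each kind, namely PF plate 2 (6 against 47), SAG plate 1 (22 against 8), SAG plate 2 (33 against 23), GP plate 1 (3 against 17) and GP plate 2 (16 against 42). Of 21 further cartilage markers, 19 were higher in the Col2a1 cells on SAG plate 1, 20 on SAG plate 2 and 18 on GP plate 2, but 7 on PF plate 2 and 3 on GP plate 1, where 11 and 17 of the markers had no read in these cells. The summed level of the 21 markers was higher in the Col2a1 cells on all 5 plates, including PF plate 2 (2852 against 1794 RPM) and GP plate 1 (5067 against 2503). Since few of the single markers were higher on these 2 plates, the cells are named here by Col2a1.

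The glycolysis set was lower in the Col2a1 cells on all 5 plates. Its levels were 3512 against 3696 RPM on PF plate 2, 3770 against 5477 on SAG plate 1, 750.1 against 1640.3 on SAG plate 2, 2344 against 5293 on GP plate 1 and 3439.7 against 3479 on GP plate 2. The differences on PF plate 2 and GP plate 2 were small, GP plate 1 had 3 such cells, and the median log2 ratio was -0.54 with an SD of 0.55 over 5 plates. The hypoxia set was lower on all 5 plates too, with a median of -0.58 (SD 0.38, n = 5), from -0.11 on SAG plate 1 to -1.04 on PF plate 2. The 2 kinds of cell also differed in other marker lists: osteoblast markers were lower in the Col2a1 cells on PF plate 2 and both SAG plates (log2 -0.51, -3.52 and -2.11) and higher on both GP plates (0.54 and 0.54), and cell cycle markers were lower on 4 of 5 plates. Hypertrophic cartilage markers were lower on PF plate 2, both SAG plates and GP plate 1 (-9.42, -3.72, -1.96 and -4.65) and higher on GP plate 2 (5.10). Their list shares Ibsp and Spp1 with the osteoblast list, so it does not mark hypertrophic cartilage alone. Its sums were highest on COR plate 1 (94069.9 RPM) and PF plate 1 (78414), as were those of the osteoblast list (260293 and 301542). Fibroblast markers were lower on both SAG plates and GP plate 2 (-1.55, -2.61 and -2.5) and higher on PF plate 2 and GP plate 1 (0.28 and 0.79), and the few reads of haematopoietic markers were higher on 4 of 5 plates. The part of these differences was not tested. Medians of all genes tested were -0.04, and of the members tested -0.52. With the cells of all plates pooled the hypoxia set was higher in the Col2a1 cells (log2 0.89), and SAG plate 2 held 33 of the 82 Col2a1 cells in that pool and 23 of the 243 others.

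Single members seldom kept a direction. Of 25 members tested, none was called higher in the Col2a1 cells, where 0.632% of 9807 genes were, and Pfkm and Ndrg1 were called lower, where 2.29% were. Ndrg1 had 33.4 against 40.8 RPM on PF plate 2, 0 against 31.7 on SAG plate 1, 0 against 65.7 on SAG plate 2, 0 against 30.1 on GP plate 1 and 0.42 against 19.9 on GP plate 2. The Col2a1 cells were lower on each plate, but a read was found in 2 of these 80 cells and in 15 of the 137 others, so few cells carried the ratio. Pfkm had 0 against 7.84 RPM on PF plate 2, 39.1 against 91.9 on SAG plate 1, 13.8 against 252 on SAG plate 2, 0 against 32.3 on GP plate 1 and 37.4 against 41.3 on GP plate 2. It was lower on each plate, with a difference near 0 on GP plate 2. A read of Pfkm was found in 0 of 6, 5 of 22, 1 of 33, 0 of 3 and 4 of 16 Col2a1 cells on the same plates. Among the other cells it was found in 6 of 47, 4 of 8, 5 of 23, 4 of 17 and 10 of 42, so few cells carried this ratio too.

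The most abundant members did not separate the 2 kinds of cell. Ldha had 655 against 1287 RPM on PF plate 2, 1195 against 1466 on SAG plate 1, 111 against 31.1 on SAG plate 2, 791 against 1844 on GP plate 1 and 1174 against 1193 on GP plate 2. Hif1a had 27.5 against 183, 343 against 239, 2157 against 2471, 249.7 against 246 and 169 against 278 RPM on the same plates. Neither had 1 direction on all 5 plates. Gapdh was lower on 3 plates and higher on 2, and so were Tpi1, Aldoa and Pgam1. Slc2a1 was higher on PF plate 2 (46.8 against 0.0922 RPM), SAG plate 1 and GP plate 1 and lower on the other 2. Its reads came from 1 of 6 Col2a1 cells on PF plate 2, 4 of 22 on SAG plate 1 and 1 of 3 on GP plate 1.

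**Figure D5:**
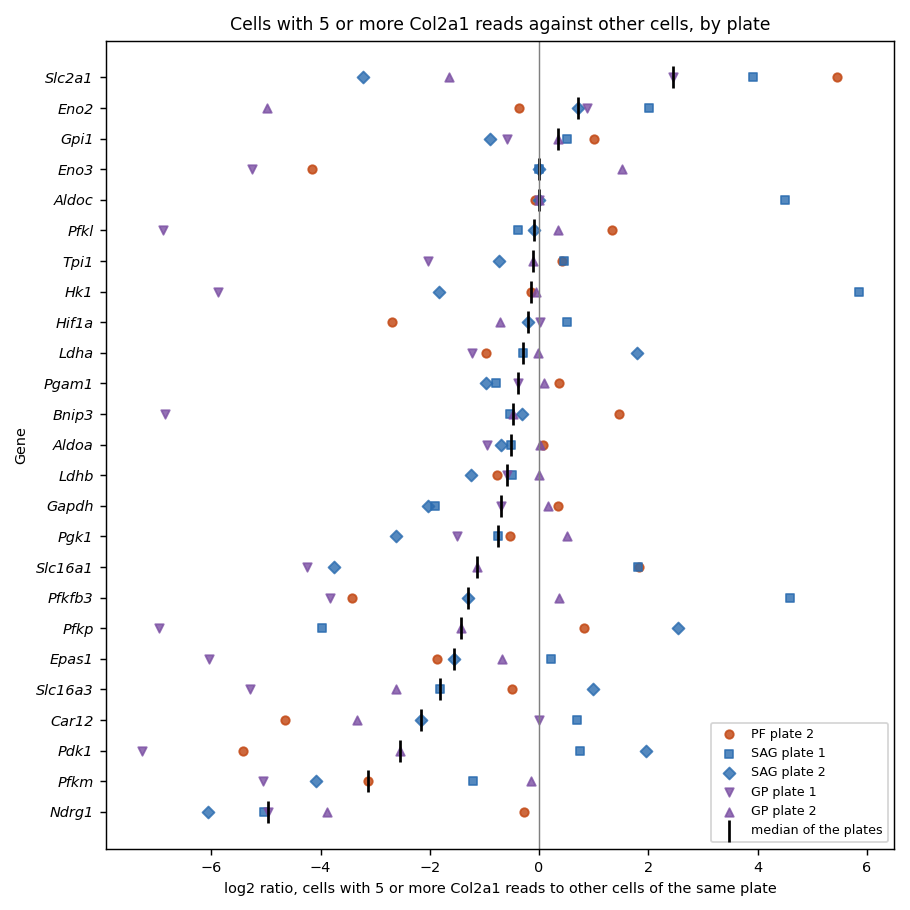
log2 ratio of cells with 5 or more Col2a1 reads to the other cells of the same plate (horizontal axis) for the 25 members that reached 10 RPM (rows, by median); each symbol is a plate and the black bar the median of the 5 plates. Ndrg1 and Pfkm are the rows whose 5 plates all lie left of 0, and most rows span 0.

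Of the wider lists, 27 further genes of sugar metabolism and 35 further hypoxia targets were counted with the same rule. Against the other cells of their plates, the Col2a1 cells were called lower for 1 of 14 sugar genes tested, beside 2.29% of all genes. That gene was the pyruvate dehydrogenase subunit gene Pdha1 (median log2 -1.23). The Col2a1 cells were called higher for 1 of 30 hypoxia genes tested, the lipid droplet gene Hilpda (2.5), beside 0.632% of all genes. Hilpda had 37.8 against 32.6 RPM on PF plate 2, 28.1 against 0 on SAG plate 1, 14.4 against 0 on SAG plate 2, 89.1 against 56.5 on GP plate 1 and 168 against 28.8 on GP plate 2. It was higher on all 5 plates, by little on PF plate 2. Pkm, the pyruvate kinase gene that closes glycolysis, was lower on 4 of 5 plates (median -0.71) and higher on GP plate 2 (1544 against 604 RPM). Across tissues Pkm had 707 and 786 RPM in PF, 725 and 125 in SAG, 1188 and 965 in COR, and 924 and 889 in GP, a pattern with SAG plate 2 lowest as for Ldha. Between tissues, 0 to 6 of 12 to 13 sugar genes tested were called in a given direction, and 0 to 7 of 30 to 31 hypoxia genes. Of all genes tested, 5.43% to 18.9% were called in a given direction. Between SAG and COR, 6 of 13 sugar genes were called lower in SAG and 2 higher, beside 18.9% and 13.5% of all genes. In the same comparison 7 of 30 hypoxia genes were called lower and 6 higher.

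The genes whose levels over the 8 plates went most closely with Ldha, of 6606 genes at 50 RPM or more on some plate, were Mzt1, Opa3, Tm9sf3, St6galnac6 and Serp1, with Pearson correlations of 0.991 to 0.997 on log2(RPM + 1). Pgam1 was the nearest member (0.986), and Hif1a was at the far end (-0.967). These values rested on SAG plate 2: over the other 7 plates the correlation with Ldha was 0.716 for Pgam1, -0.514 for Hif1a, -0.846 for Ldhb and 0.069 for Gapdh, and St6galnac6 came first (0.971). The plates share tissues, so the correlations are descriptions.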

How the data were processed

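Single sorted cells were sequenced in the Smart-seq2 manner, and the authors deposited raw read counts per gene for each cell, on mm9. Their processing notes name STAR 2.5.3a, HTSeq, Seurat 2.3.0 and R 3.4.4; annotation, strand and the handling of reads with several matches are not given in the sources used here. The members and lists were chosen with earlier results of these data known. All columns matched a sample. Cells with at least 500 genes and 10000 reads were kept, and counts were summed by plate and tissue and scaled per 1000000 reads other than Rn45s. Ratios are log2 with a pseudocount of 1, and the ratios of single plates are the spread. Calls needed 10 RPM, a log2 ratio of 1 and one sign on all plates. No test was run, as each tissue was 1 sample. Poisson and Clopper-Pearson intervals are at 95%, and a count of 0 was given a floor of 3 reads. Values on every plate were given for called members and for Gapdh, Ldha, Pgk1, Slc2a1, Hif1a, Epas1, Vegfa and Bnip3. Of the wider lists, genes called in the Col2a1 comparison and Pkm were named. Promoters are from RefSeq (GRCm38.p6) and were joined by symbol. The call rule was tried on simulated PF and COR cells drawn from the same gene profile, apart from genes changed by a set fold. The simulation held no difference between plates, so it cannot show how the rule handles such a difference. Alternatives were Rn45s counted, TMM factors (edgeR 4.0.16), other cell filters, equal weight per cell, thinning, a pseudocount of 0.1, other Col2a1 limits and leaving out cells, members or plates. Python 3.11.15, numpy 2.4.6, pandas 2.3.3, scipy 1.17.1 and R 4.3.3 were used.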

Additional observations from a re-analysis of the deposited data

Results flagged for a closer look

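Pdk1, which encodes the kinase that closes pyruvate dehydrogenase, went opposite ways in SAG and GP between cells with 5 or more Col2a1 reads and the other cells of the plate. It was at 55 against 32.2 RPM on SAG plate 1 and 2.89 against 0 on SAG plate 2 (log2 0.75 and 1.96), and at 0 against 153 on GP plate 1 and 8.97 against 56.8 on GP plate 2 (-7.27 and -2.54). A read was found in 5 of 22 and 1 of 33 Col2a1 cells on the SAG plates, and in 0 of 3 and 2 of 16 on the GP plates. Among the other cells it was found in 1 of 8 and 0 of 23, and in 6 of 17 and 8 of 42. The means of the plate ratios differed by 6.26, and few cells carried this difference. The difference was not tested, 25 members were looked at, GP plate 1 had 3 such cells, and the levels on SAG plate 2 were near the floor.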

How the results depend on the processing

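Of 146 values of the 2 sets under alternatives, 130 stayed within the spread between plates and 16 moved beyond it. With Rn45s counted, the glycolysis set was at 2.5 between PF and SAG, -2.62 between SAG and COR and -2.45 between SAG and GP, and the hypoxia set at -0.45, 0.51 and 0.41. The stricter cell filter kept no cell of SAG plate 2 and gave -0.70, 0.79 and 0.59 for the hypoxia set. Without Hif1a the hypoxia set was at -0.22 (PF and SAG), 0.37 (SAG and COR), 0.55 (PF and GP), 0.77 (SAG and GP) and 0.40 (COR and GP). Between Col2a1 cells and others it was at -0.98 after thinning and 0.89 with plates pooled. The sign turned in 11 of these values with other settings and in 7 with a plate left out. Those not given above were the hypoxia set between PF and COR without the top cell of each group (-0.23 instead of 0.07), the glycolysis set without Ldha (0.01 between PF and COR, -0.10 between COR and GP), under the stricter filter (-0.13, 0.07 and 0.15 in the 3 SAG comparisons, 0.02 between PF and GP) and with Rn45s counted (0.05 between PF and GP). The number of members called was 7 instead of 12 for SAG to COR under the stricter filter, 1 with Rn45s counted and 4 with equal weight instead of 2 for COR to GP, and 1 instead of 2 for the Col2a1 cells with TMM factors. The stricter filter, Rn45s in the total, equal weight of cells and TMM factors each took calls from single genes; Pfkm between SAG and GP was called under 1 of the 4. The cause was not tested.

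With each plate left out in turn, the glycolysis set ran from -0.43 to -0.07 for PF to COR, -0.24 to 1.72 for PF to SAG, -1.83 to 0.13 for SAG to COR, -0.40 to 0.07 for PF to GP, -1.74 to 0.22 for SAG to GP, -0.29 to 0.41 for COR to GP and -0.83 to -0.31 for the Col2a1 cells. The hypoxia set ran from -0.55 to 0.19, -2.96 to -0.71, 0.78 to 2.94, -0.73 to 0.01, 0.60 to 2.76, -0.50 to -0.11 and -0.73 to -0.45. Members called ran from 5 to 10, 7 to 19, 7 to 19, 8 to 12, 9 to 21, 3 to 10 and 2 to 3, and over all comparisons, that of the Col2a1 cells included, from 16 to 26 (17 with all plates); fewer plates must then share a sign. Leaving out plates for the calls was chosen after seeing the data. No paired analysis was possible because the labels number single cells and not animals, and no test was run. Genes near 10 RPM often rested on 1 cell of a plate, and their absence was not detectable at this depth.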
